A study of Laccaria bicolor with 4 samples.

Results

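The genes described here lie within 100 kb of the ends of the 10 linkage groups of *Laccaria bicolor*, an ectomycorrhizal basidiomycete that lives on the roots of forest trees. A linkage group is a chromosome-scale assembly unit, built here from the V2 genome. A gene was taken as a member if it ended within the first 100 kb of its linkage group or started within 100 kb of the last annotated gene end, so the ends were set by gene positions alone and no telomere sequence was used. This rule gave 734 members, 394 at the start ends and 340 at the far ends, among 18184 genes on the linkage groups and 23125 genes listed in all. The other 17450 linkage group genes, called the rest, were the comparison.

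Total RNA, from which short molecules and ribosomal RNA had been removed, was sequenced from mycelium of the haploid monokaryotic strain S238N-H82 after 8 weeks in liquid culture. There were 2 untreated libraries and 2 libraries from mycelium given 5 mM vitamin C for 2 days, and the series design calls the 2 libraries of each condition biological replicates. Vitamin C is a cofactor of the dioxygenases that oxidise 5-methylcytosine, and the treated and untreated libraries ask whether transcript levels differ when that oxidation is raised. Both conditions used the same strain and no allele was altered in either. From the ratio of coverage to FPKM, the untreated libraries held 4.20 and 4.40 Gb of aligned sequence and the vitamin C libraries 5.65 and 4.27 Gb. Levels are given in TPM, a length-corrected share of the transcripts of a library, and a gene was called non-expressed in a condition if its mean of the 2 libraries was 0.05 TPM or less. In bulk mycelium, fewer cells that transcribe a gene and less RNA per cell cannot be told apart.

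The DNA next to telomeres, the subtelomere, is in many fungi a place of heterochromatin, in which packed and often methylated DNA is transcribed little. It commonly carries repeats, transposable elements and members of gene families that vary between strains, such as secreted proteins and enzymes of secondary metabolism. Silencing of such repeats can reach neighbouring genes. The files do not pair gene identifiers with names, so the members are identified by linkage group and position and no function is given to any of them.

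The 20 ends held between 26 and 52 genes each, with a median of 35. Each end spanned 100 kb by definition, and together they covered 2 Mb of 47.6 Mb, or 4.20% of the linkage group length, with 4.04% of its genes. Gene density at the ends was therefore close to that of the rest. At the start ends the outermost gene began between base 309 and base 4105. The linkage groups ranged from 1.95 Mb for linkage group 8 to 12.6 Mb for linkage group 1, so the ends made up more of the short linkage groups than of the long ones. In all, 12 gene models crossed the 100 kb border and were counted with the rest.

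**Figure D1:**
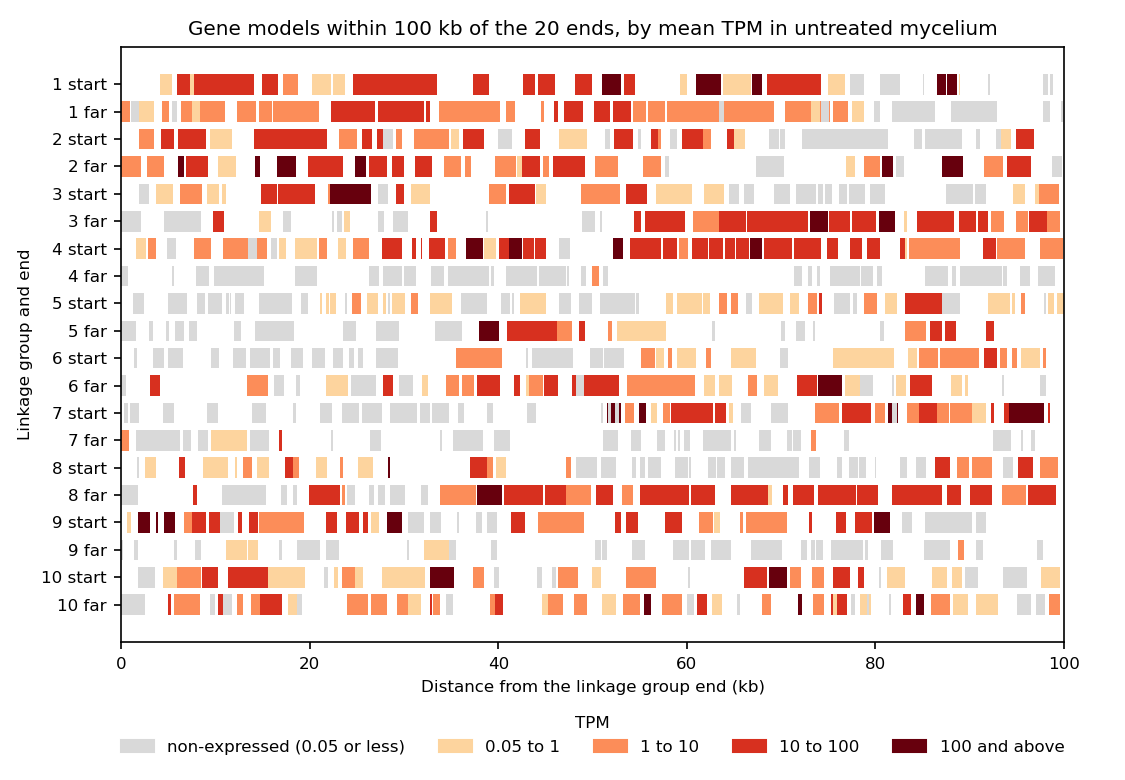
Each row is 1 of the 20 linkage group ends, and each bar is a gene model at its distance from the end in kb, coloured by mean TPM in the 2 untreated libraries. The far ends of linkage groups 4, 7 and 9 are almost wholly non-expressed, while 44 of 48 models at the start of linkage group 4 were expressed.

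Non-expressed genes were slightly more common at the pooled ends than elsewhere, and the share differed widely from end to end. In untreated mycelium 289 of 734 members were non-expressed (39.4%), against 5962 of 17450 genes of the rest (34.2%). With vitamin C the numbers were 293 members (39.9%) and 34.6% of the rest. Counted in single libraries, the share at or below 0.05 TPM was 41.0% and 41.4% in the untreated and 40.2% and 40.6% in the vitamin C libraries. In the rest it was 35.0% to 35.6%. The ends were above the rest in each of the 4 libraries. Between conditions the share at the ends was 41.2% ± 0.289 untreated and 40.4% ± 0.289 with vitamin C (SD, n = 2), and an exact two-sided permutation test gave p = 0.333, the smallest that 2 against 2 libraries allow. Of the members, 266 were listed at 0 TPM in all 4 libraries and 405 were above 0.05 TPM in all 4.

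The ends differed from each other far more than the ends differed from the rest. The share of non-expressed genes in untreated mycelium ran from 8.33% at the start of linkage group 4 (4 of 48 genes) to 96.9% at its far end (31 of 32), so a single linkage group carried both extremes. The far end of linkage group 9 followed with 87.1% (27 of 31) and that of linkage group 7 with 85.7% (24 of 28). The next values were 57.7% at the far end of linkage group 5 (15 of 26), 51.4% at the start of 6 (18 of 35), 51.2% at the start of 8 (22 of 43) and 50% at the start of 7 (21 of 42). At the other extreme stood the far end of linkage group 2 with 12.9% (4 of 31) and the start of linkage group 1 with 18.8% (6 of 32). These shares were steady between libraries, since the largest range over the 4 libraries at any end was 11.8 percentage points, and 14 of 20 ends had the same count in both conditions. The start of linkage group 5 moved most, from 24 non-expressed genes untreated to 30 with vitamin C of 52, and 6 of its weakly detected genes accounted for this.

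Against the rest of its own linkage group, the share was higher at 9 of 20 ends in untreated mycelium and at 8 of 20 with vitamin C. With both ends of a linkage group pooled, 6 of 10 linkage groups had the higher share at the ends. The difference ran from -13.97 percentage points in linkage group 1 to 25.8 in linkage group 9 and 24.4 in linkage group 7, with a mean of 4.63 and an SD of 13.2 over the 10 linkage groups. The spread between linkage groups was thus larger than the mean difference. The far ends of linkage groups 4, 7 and 9, singled out after their values were seen, held 82 non-expressed genes of 91. Without them 207 of 643 members were non-expressed (32.2%), and the difference from the rest, 5.21 percentage points with all ends, became -1.97. Leaving out the most silent ends lowers the share by construction, and the rest kept its own silent stretches. No conclusion is therefore drawn from the value without them.

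Stretches as silent as these 3 were also found away from the ends. Of 451 windows of 100 kb cut from the rest, 39 (8.65%) had a non-expressed share of at least 85.7%. This was the lowest value of the 3 far ends, so by that choice 3 of 20 ends reached it. The interior windows had a median share of 31.3% with quartiles of 13.9% and 58.3%, and a median of 38 genes (12 to 58). Such stretches were thus not limited to the ends.

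**Figure D2:**
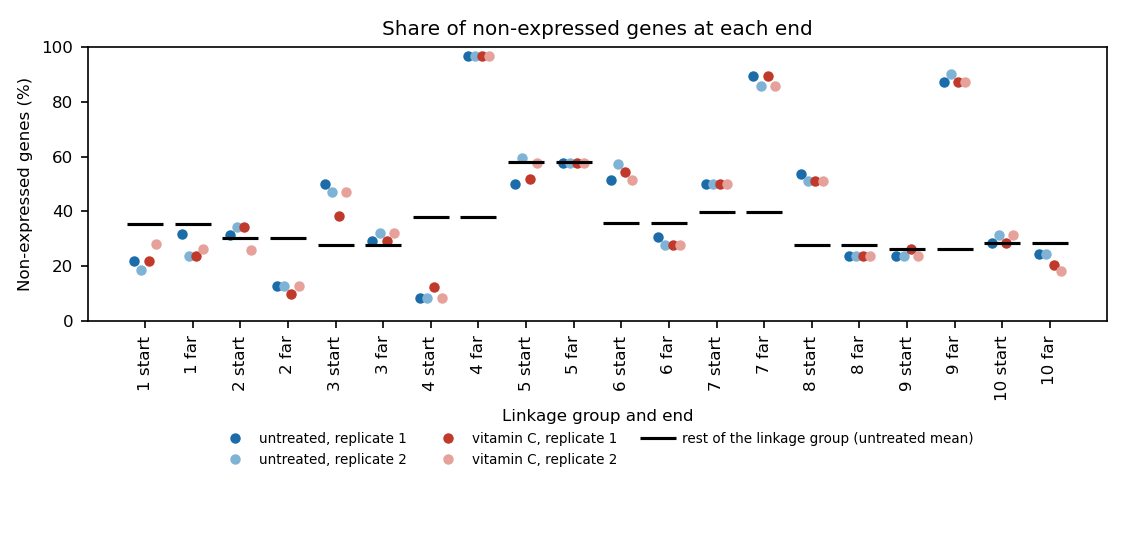
The share of genes at or below 0.05 TPM (%) is plotted for each of the 20 ends, with 1 point per library and a black bar for the rest of the same linkage group in untreated mycelium. The points of an end lie close together, within 11.8 percentage points, while ends range from 8.33% to 96.9% in untreated mycelium.

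The 3 silent far ends held 9 expressed genes, of which 4 (44.4%) were under 1 TPM. The only expressed gene within 100 kb of the far end of linkage group 4, at 4285944 to 4286636, had 2.40 and 0.997 TPM untreated and 1.31 and 0.736 TPM with vitamin C. The strongest at the far end of linkage group 9, at 2070220 to 2070882, had 1.12 and 1.16 TPM untreated and 1.12 and 0.700 TPM with vitamin C. In both genes the conditions overlapped or lay within a small fraction of a TPM of each other. The far end of linkage group 7 was less uniform, and its strongest gene, at 2582290 to 2582652, had 10.6 and 17.8 TPM untreated and 21.3 and 14.9 TPM with vitamin C.

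The outermost gene was non-expressed at 13 of 20 ends in untreated mycelium, and at 12 of these it was listed at 0 TPM in all 4 libraries. The exception was the last gene of linkage group 10, with 0 and 0.0323 TPM untreated and 0.0349 and 0 TPM with vitamin C. At the other 7 ends the outermost gene was expressed at a low level. The highest of them, at 1859 to 3422 of linkage group 2, had 9.03 and 5.11 TPM untreated and 6.11 and 7.81 TPM with vitamin C. The last gene of linkage group 7, at 2598517 to 2599362, had 3.67 and 3.90 TPM untreated and 7.54 and 5.50 TPM with vitamin C, and it stood alone at the edge of a silent stretch. An unbroken run of at least 5 non-expressed genes began at the very edge of 5 ends. These runs held 18 genes at the far end of linkage group 4, 16 at the start of 7, 13 at the start of 6, 10 at the far end of 5 and 9 at the start of 5.

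The share of non-expressed genes was highest in the outermost 10 kb and did not fall evenly with distance. It was 48.2% of 83 genes at 0 to 10 kb, 41.2% at 10 to 20 kb, 41.8% at 20 to 30 kb, 37.7% at 30 to 40 kb and 31.1% at 40 to 50 kb. It was higher again farther in, with 36.6% at 50 to 75 kb and 39.5% at 75 to 100 kb. The genes just beyond the border were no less silent, with 44.6% at 100 to 200 kb and 44.6% at 200 to 300 kb, then 31.0% at 300 to 500 kb, 37.6% at 500 to 1000 kb and 31.9% beyond 1000 kb. Among the 5 genes on each side of each border, 39 of 100 inside and 38 of 100 outside were non-expressed. The 100 kb limit therefore did not mark a step in silence. These bands pool ends with very different shares and are descriptions.

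**Figure D3:**
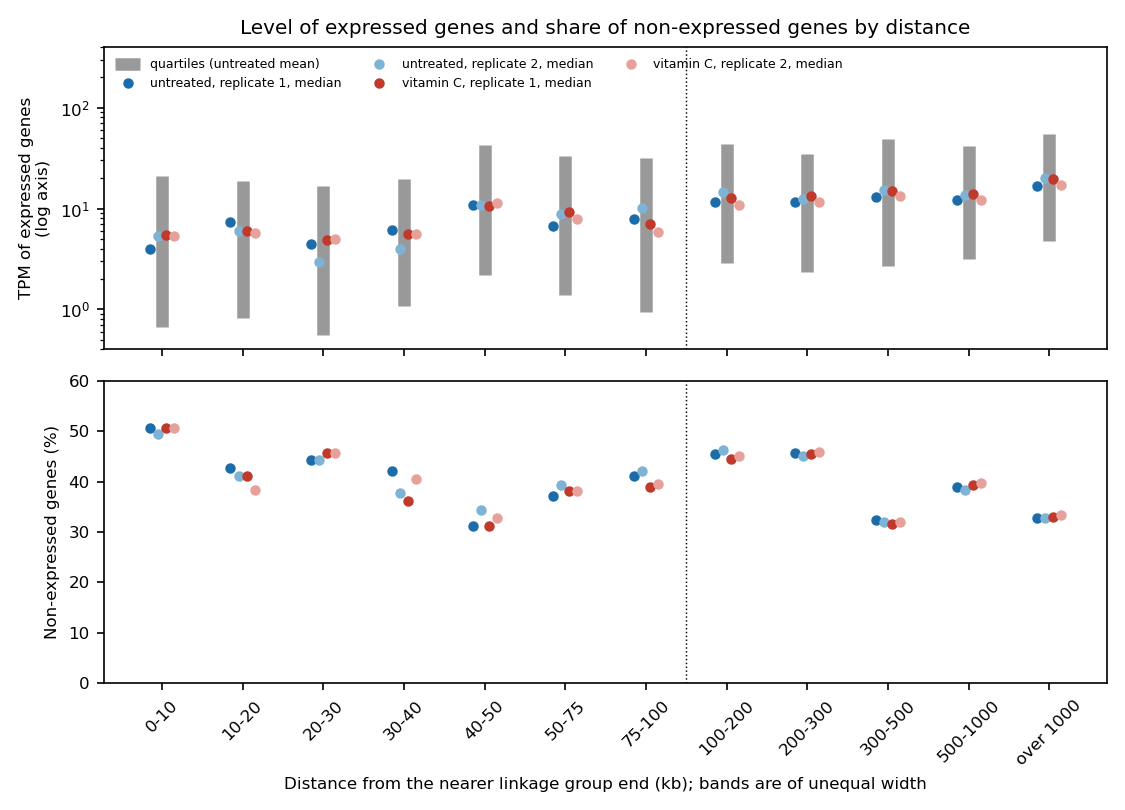
The upper panel shows TPM of expressed genes (log axis) and the lower panel the share of non-expressed genes (%) by distance from the nearer end in kb, with 1 point per library, grey bars for the quartiles of the untreated mean, and a dotted line at 100 kb. In the untreated mean, median levels are 3.19 to 11.3 TPM inside the line and 11.6 to 18.0 TPM outside it, so the ranges nearly meet. In vitamin C replicate 2 they cross, with 11.4 TPM at 40 to 50 kb and 10.9 TPM at 100 to 200 kb. In the other libraries they do not cross. The non-expressed share has no step at the line.

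Genes that were expressed near the ends were expressed at a lower level than elsewhere. In untreated mycelium the median of the 445 expressed members was 5.79 TPM (quartiles 0.911 and 28.4), against 16.0 TPM (quartiles 3.89 and 50.6) for 11488 expressed genes of the rest, a ratio of 2.76. With vitamin C the medians were 6.30 and 15.8 TPM. Taken library by library, the members' median was 6.24 and 6.61 TPM untreated and 6.49 and 6.33 TPM with vitamin C, and that of the rest was 14.9, 17.7, 17.2 and 15.0 TPM in the same order. No library brought the ends near the rest, and between conditions the ends' median did not separate (exact two-sided permutation test, p = 1, n = 2 per condition). The lower quartiles differed more than the upper ones, and among genes at 1 TPM or more the ratio of the medians was 1.37. With ends of 200 kb the ratio was 1.70.

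The lower level was spread over more ends than the silence. The median of expressed genes was below that of the rest of the linkage group at 14 of 20 ends untreated and 15 of 20 with vitamin C. Of the 17 ends with at least 10 expressed genes it was below at 11. With both ends pooled, 9 of 10 linkage groups had the lower median at their ends, from 1.05 against 4.87 TPM in linkage group 5 and 2.33 against 15.1 TPM in linkage group 6 to 17.1 against 18.9 TPM in linkage group 9. The exception was linkage group 4, with 19.3 TPM at the ends and 17.9 TPM in the rest, where all but 1 of the expressed members came from the start end. Of the 17 ends, 8 (47.1%) had a median under 5 TPM, against 53 of 375 interior windows (14.1%) with the same minimum of 10 expressed genes. The median of the end medians was 10.3 TPM, and that of the window medians was 14.9 TPM with quartiles of 8.37 and 24.8 TPM.

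The end medians ran from 0.419 TPM at the start of linkage group 5 to 25.5 TPM at the start of linkage group 1, among ends with at least 10 expressed genes. At the start of linkage group 5 the median in single libraries was higher than 0.419 TPM but stayed low. It was 0.743 and 0.767 TPM untreated and 0.706 and 0.999 TPM with vitamin C. This end held 28 expressed genes, and its strongest gene, at 83146 to 87675, had 27.5 and 22.7 TPM untreated and 29.0 and 29.4 TPM with vitamin C. The start of linkage group 1 combined few silent genes with many strong ones. Even so, 9 of its 26 expressed genes (34.6%) were under 1 TPM, against 9.89% in the rest of that linkage group. Its strongest gene, at 60990 to 63639, had 427 and 404 TPM untreated and 428 and 427 TPM with vitamin C, nearly the same in each library.

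**Figure D4:**
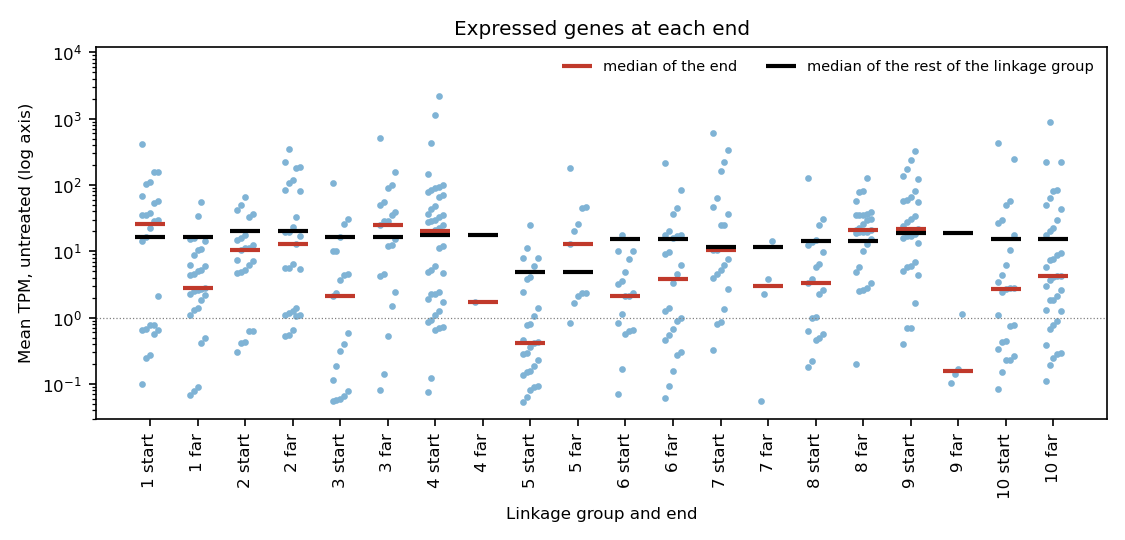
Each blue point is an expressed gene (mean TPM over the 2 untreated libraries, log axis) at 1 of the 20 ends, with red bars for the median of the end and black bars for the median of expressed genes in the rest of that linkage group. The red bar lies below the black bar at 14 of 20 ends, and the dotted line marks 1 TPM.

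The level was also compared at like shares of silent genes, with ends pooled. At the 7 ends with under 25% non-expressed genes the 221 expressed members had a median of 12.8 TPM, against 20.2 TPM in 186 interior windows of that range. These 7 ends were not alike, because the medians of 4 of them lay above the rest of their own linkage group: 25.5 against 16.6 TPM at the start of 1, 20.1 against 17.9 TPM at the start of 4, 21.1 against 14.4 TPM at the far end of 8 and 21.8 against 18.9 TPM at the start of 9. The far ends of linkage groups 1 and 10 were the lowest of the 7, with 2.80 and 4.24 TPM, and the far end of 2 had 12.8 against 20.1 TPM. At the 6 ends with 25% to 50% it was 3.66 against 12.4 TPM, at the 4 ends with 50% to 75% it was 4.22 against 6.13 TPM, and at the 3 silent far ends it was 1.14 TPM over only 9 genes against 3.89 TPM. In each range the pooled ends had the lower median, but single ends differed beyond the first range too. The far end of 3, with 32.3% non-expressed genes, had 24.8 against 16.1 TPM in its rest. The far end of 5, with 57.7%, had 12.7 against 4.87 TPM. All other ends with 25% or more non-expressed genes lay below the rest of their own linkage group. At the 100 kb border the expressed genes among the 5 just inside had a median of 4.29 TPM. Those among the 5 just outside had 13.1 TPM. By distance the untreated median was 4.35 TPM at 0 to 10 kb, 3.19 TPM at 20 to 30 kb, 11.3 TPM at 40 to 50 kb and 6.07 TPM at 75 to 100 kb, then 12.8 TPM at 100 to 200 kb and 18.0 TPM beyond 1000 kb. The medians inside the border did not follow an even slope. They rose from 4.94 TPM at 30 to 40 kb to 11.3 TPM at 40 to 50 kb. A rise between bands of similar size to that at the border thus also lay inside the ends. In single libraries the bands on both sides of the border lay closer together than in the untreated mean. At 75 to 100 kb the median was 7.94 and 10.1 TPM untreated and 6.98 and 5.80 TPM with vitamin C. At 100 to 200 kb it was 11.5 and 14.5 TPM untreated and 12.8 and 10.9 TPM with vitamin C.

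Much of the lower level came as weak transcription, meaning a mean above 0.05 and below 1 TPM. Weak genes made up 114 of 445 expressed members (25.6%) in untreated mycelium, against 1278 of 11488 in the rest (11.1%), and 23.6% against 11.7% with vitamin C. In single libraries the share was 24.7% and 24.2% untreated and 22.6% and 23.9% with vitamin C, and between 9.73% and 10.7% in the rest. It was higher at the ends in 10 of 10 linkage groups, at 16 of 20 ends, and at 14 of the 17 ends with at least 10 expressed genes. Among these 17 the start of linkage group 5 had the largest share, 18 of 28 expressed genes (64.3%), followed by the start of linkage group 3 with 10 of 21 (47.6%), while the far end of linkage group 8 had 1 of 29 (3.45%). Of the 17 ends, 7 had a weak share of at least 25%, against 58 of 375 interior windows (15.5%). At like shares of silent genes the excess was not found throughout. With under 25% non-expressed genes the weak share was 16.7% at the pooled ends and 7.51% in interior windows, and with 25% to 50% it was 38.6% and 13.5%. With 50% to 75% it was 24.3% and 24.4%, so the ends had no excess there. At the 3 silent far ends it was 44.4% of only 9 genes, against 33.6%.

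Weak members were not mostly genes seen in a single library. Of the 114, 74 (64.9%) were above 0.05 TPM in all 4 libraries, against 59.5% of the weak genes of the rest. The reads behind weak members were few. Among the members weak in a given library, median coverage was 1.31 and 1.11 untreated and 1.31 and 1.24 with vitamin C. Coverage is the mean number of reads over a base of the gene. Expressed members as a whole had a median coverage of 17.5 to 22.9, against 41.4 to 60.7 in the rest. Which side of 0.05 TPM a weak gene fell on could change with a few reads. The models at 12596001 to 12605959 of linkage group 1 matched those at 10777 to 20735 of linkage group 4 in order and strand. Their spans were equal too, but for 1 pair of 936 and 934 bases. Several of these models were weak and are counted singly. Whether their sequences are alike was not tested, and reads shared between copies would leave such levels uncertain. Of the members, 14 were expressed only untreated and 10 only with vitamin C, together 3.27% against 2.11% of the rest, and none of these 24 reached a condition mean above 0.778 TPM. The model at 7329 to 7724 of linkage group 1, which overlaps its neighbours, was the highest of them, with 0.841 and 0.716 TPM untreated and 0.0625 and 0.0161 TPM with vitamin C. It was picked out after its values were seen.

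The ends also held strongly expressed genes, but fewer than their number of genes would give. Members at 100 TPM or more numbered 36 (4.90%), against 1562 genes of the rest (8.95%), and members at 10 TPM or more 193 (26.3%) against 6899 (39.5%). The 734 members were 3.17% of all listed genes and took 1.80% and 1.72% of the summed TPM untreated and 1.91% and 1.89% with vitamin C. The vitamin C libraries were both above the untreated ones, at 1.90% ± 0.0175 and 1.76% ± 0.0560 (SD, n = 2), with an exact two-sided permutation p = 0.333, the smallest possible.

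The strongest member lay 41 kb inside the start of linkage group 4, at 41176 to 42512 on the plus strand, with 2405 and 1979 TPM untreated and 2095 and 2285 TPM with vitamin C. The same end held a gene at 66719 to 68014 with 1234 and 1025 TPM untreated and 984 and 1149 TPM with vitamin C, which ranked next among all members. In both genes the values of the conditions overlapped. The strongest gene of the far end of linkage group 10, at 4223400 to 4224226, had 959 and 806 TPM untreated and 1008 and 1162 TPM with vitamin C. The strongest of the start of linkage group 7, at 51569 to 53047, had 706 and 499 TPM untreated and 690 and 784 TPM with vitamin C, and it overlaps another model, so its level is uncertain. The strongest of the far end of linkage group 3, at 7882921 to 7884772, had 539 and 463 TPM untreated and 760 and 573 TPM with vitamin C. In these genes of linkage groups 10 and 3 both vitamin C values lay above both untreated ones, and neither gene passed the adjusted threshold. At 13 of 20 ends the strongest gene reached a mean of 100 TPM over the 4 libraries and at 18 of 20 it reached 10 TPM. The ends without such a gene were the far ends of linkage groups 4 and 9.

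The start of linkage group 9 carried strong genes closest to an edge. Its strongest, a model of 150 bases at 3689 to 3838, had 287 and 367 TPM untreated and 372 and 272 TPM with vitamin C. A model this short is below the size at which RNA was kept for the libraries, so reads on it may derive from longer transcripts, which was not tested. Its neighbours at 1738 to 3001 and 4514 to 5659 had untreated means of 177 and 241 TPM. These 3 genes, of which the neighbours were picked after their values were seen, followed a weak outermost gene with 0.260 and 0.539 TPM untreated and 0.571 and 0.675 TPM with vitamin C. The opposite end of this linkage group was 87.1% silent.

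Gene models at the ends were about as long as elsewhere and lay slightly farther apart. Their median span, from the first to the last base of the model, was 1150.5 bases (quartiles 630 and 1890), against 1191 bases (644 and 2012) in the rest, and the end median was below the rest of the linkage group at 9 of 20 ends. Models of up to 300 bases made up 7.49% of members and 8.26% of the rest, and models of 5000 bases or more 2.04% and 2.61%. Non-expressed members had a median span of 876 bases and expressed ones 1324 bases, and the rest had 827.5 and 1384 bases. The shorter span of silent genes thus held in both places.

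The median distance between neighbouring models was 673.5 bases at the ends (quartiles 255 and 1470) and 516 bases in the rest (169 and 1263). The end median was the larger at 14 of 20 ends. Distances are between listed models, as are gene density, silent runs and outermost genes. Gene identifiers skip numbers in places along a linkage group, and whether models are missing there was not tested. Ends with wide spacing were the far ends of linkage groups 9, with 1482 against 367 bases in its rest, and 5, with 1388 against 735 bases. The start of linkage group 4 was the most tightly packed, with a median of 288 bases. Long gaps were not more common, since 26 of 714 distances at the ends (3.64%) reached 5000 bases, against 3.70% in the rest. The longest, 19736 bases, lay at the silent far end of linkage group 4, and the far end of linkage group 7 had one of 15266 bases. Overlap with another model was recorded for 102 members (13.9%), against 15.0% of the rest. Members were transcribed toward the nearer end in 357 cases (48.6%), against 50.4%.

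Linkage group 5 had the largest non-expressed share of the 10, and its ends were not above its rest. They had 39 of 78 genes non-expressed (50%) against 58.2% of its rest in untreated mycelium, and 57.7% against 58.3% with vitamin C. The expressed genes of its ends were nonetheless low, with a median of 1.05 TPM against 4.87 TPM. Without this linkage group the other ends had 38.1% non-expressed genes against 32.5% of their rest.

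With vitamin C, 0 of the 445 members tested passed an adjusted p of 0.05 in the limma fit across all genes, in which 14 of 15107 genes (0.0927%) passed. The smallest adjusted p of a member was 0.18 (limma). At an unadjusted p under 0.05, 43 members were higher with vitamin C (9.66%), where 4.98% of all tested genes were, and 21 were lower (4.72%), where 8.13% of all were. The sign of the change was positive for 258 of 445 members (58.0%), against 47.7% of all tested genes, and the median change on the log2(TPM + 1) scale was 0.07 for members and -0.02 for all genes. Members are not replicates and the neighbours share an end, so these counts are descriptions.

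The split between higher and lower depended on the scaling and on single libraries. On FPKM in place of TPM it was 35 members higher and 29 lower, with 618 and 1643 among all genes, and after quantile normalisation 54 and 23, with 1115 and 1315. Without untreated replicate 1 the counts were 50 and 29 among members and 748 and 1458 among all genes, and without untreated replicate 2 they were 27 and 15 against 417 and 733. Without vitamin C replicate 1 they were 12 and 8 against 165 and 473, and without vitamin C replicate 2 they were 19 and 7 against 444 and 475. At an unadjusted p under 0.05 more members were higher than lower, and more of all genes lower than higher, under each of these. The sign over all genes was less steady. Positive and negative signs numbered 7877 and 7229 after quantile normalisation, 8439 and 6609 without untreated replicate 2, and 8208 and 6865 without vitamin C replicate 2. Under the other settings of this paragraph negative signs were the more common over all genes. Among members positive signs were the more common under each. On TPM with all 4 libraries, the positive share was above that of the rest at every level. It was 54.5% against 38.1% at 0.05 to 1 TPM, 56.0% against 40.8% at 1 to 10 TPM and 61.5% against 51.6% at 10 TPM and above.

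The members with an unadjusted p under 0.05 gathered at a few ends. The far end of linkage group 10 had 10 higher and 0 lower among 39 tested genes, with a median change of 0.35, and the start of linkage group 8 had 7 higher and 0 lower among 21, with a median change of 0.32. The far ends of linkage groups 2 and 6 had 5 higher each, with 1 and 2 lower. The start of linkage group 1 went the other way, with 1 higher and 5 lower among 26. The median change was positive at 14 of 20 ends, and at 13 of the 17 ends with at least 10 tested genes. Whether ends differed from each other in this was not tested.

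**Figure D5:**
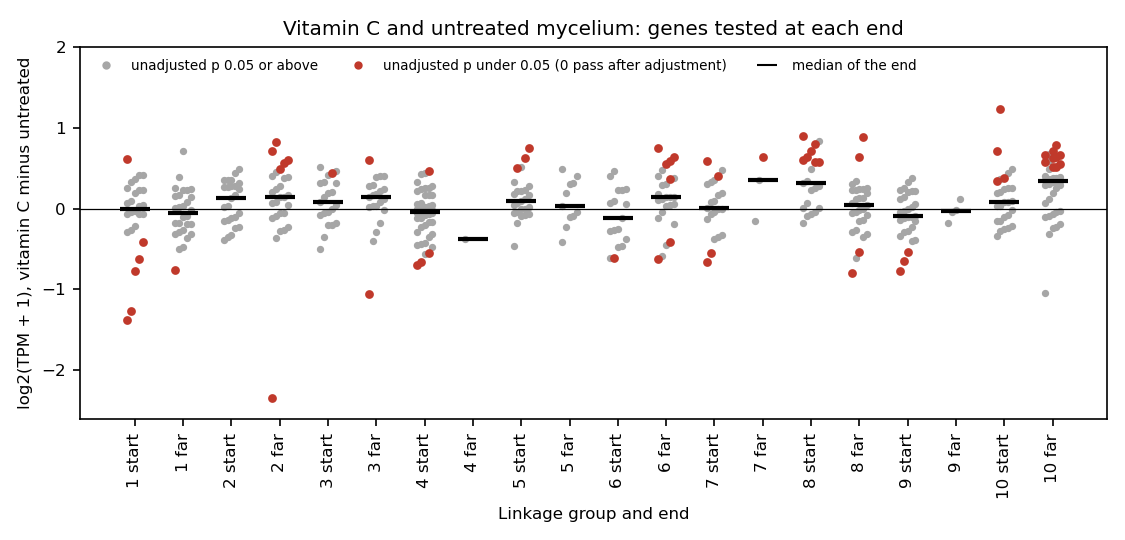
The difference between vitamin C and untreated mycelium on the log2(TPM + 1) scale is plotted for the 445 members tested, by end, with red points for an unadjusted p under 0.05, grey points for the others and black bars for the median of the end. No member passes after adjustment, the red points of the far end of linkage group 10 and the start of linkage group 8 all lie above 0, and 5 of 6 at the start of linkage group 1 lie below.

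The strongest gene at the start of linkage group 8, a model of 270 bases at 28286 to 28555, had 131 and 124 TPM untreated and 218 and 228 TPM with vitamin C. Its values did not overlap between conditions. At the far end of linkage group 6 the strongest gene, at 3582966 to 3585583, had 250 and 178 TPM untreated and 373 and 342 TPM with vitamin C, also without overlap. That of the far end of linkage group 5, at 3222183 to 3224263, had 215 and 142 TPM untreated and 230 and 263 TPM with vitamin C, with a small gap between the conditions. None of these passed the adjusted threshold in limma.

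The members with the largest changes, among those at an unadjusted p under 0.05 with no overlap of values between the conditions and at least 1 TPM in a condition, did not pass either. The largest decrease was at 4660426 to 4662628 of linkage group 2 (gene_7791), with 65.8 and 172 TPM untreated and 21.2 and 19.2 TPM with vitamin C. The vitamin C values were close to each other and the untreated ones were not, and the change was -2.34 ± 0.40 (SE, log2(TPM + 1) scale), adjusted p = 0.18 (limma). The next was at 37295 to 39032 of linkage group 1 (gene_11), with 15.5 and 55.4 TPM untreated and 8.68 and 13.2 TPM with vitamin C. Here 1 untreated library lay just above the vitamin C values and the other far above, and the change was -1.38 ± 0.53, adjusted p = 0.35 (limma).

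The largest increase was at 66089 to 67818 of linkage group 10 (gene_19691), with 22.8 and 12.4 TPM untreated and 45.7 and 36.9 TPM with vitamin C. It overlaps another model, so reads may be shared between them, and the change was 1.24 ± 0.30, adjusted p = 0.27 (limma). The next was a model of 275 bases at 12041 to 12315 of linkage group 8 (gene_17758), with 0 and 0.449 TPM untreated and 1.31 and 1.17 TPM with vitamin C. It was listed at 0 in 1 untreated library, and the change was 0.90 ± 0.22, adjusted p = 0.27 (limma).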

How the data were processed

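Per the study's methods, the authors trimmed reads (BBDuk), mapped them on assembly V2 (hisat2), dropped duplicates (samtools) and estimated expression with StringTie. The deposited tables, 1 per library, give for each gene its position, coverage (mean read depth, not scaled), FPKM and TPM as the authors' software computed them. Neither the strand setting of StringTie nor the division of reads between near-identical copies is given in the sources used here.

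Members were selected by position in Python 3.11.15 with pandas 2.3.3, and spans, distances, overlaps and levels were computed per end, per library and for 451 interior windows of 100 kb. TPM was scaled to a fixed sum, so a change in a few strong genes shifts all others. For vitamin C against untreated, limma 3.58.1 in R 4.3.3, with an intensity trend, was fitted to log2(TPM + 1) of the 15107 genes whose mean of 4 libraries exceeded 0.05 TPM, with Benjamini-Hochberg adjustment. Fold changes on this scale understate those of low genes. The code was checked on simulated data. Shares and medians were compared between conditions by exact permutation tests over libraries.

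Genes named by position were the strongest and the outermost of each end and the 2 largest changes in each direction. Members and lists were chosen with earlier results of these data known. A reference table of an earlier assembly matched 0 of 23125 identifiers and was not used.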

Additional observations from a re-analysis of the deposited data

How the results depend on the processing

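Ends were taken from gene positions, libraries number 2 per condition, and reads on weak genes are few, so a share or level near 0.05 TPM is loosely fixed. The share difference, ends minus rest, was 5.21 percentage points and became 6.25 with ends of 50 kb, 8.27 with 200 kb, 7.10 with non-expressed set at 0.1 TPM or less, 13.4 at under 1 TPM, 4.00 without overlapping models, 5.65 without linkage group 5, 4.63 with equal weights for linkage groups, 2.87 to 7.56 leaving out 1 linkage group (7 and 1, respectively), 5.87 to 6.47 leaving out 1 library, and -1.97 without the far ends of linkage groups 4, 7 and 9. The level ratio, rest to ends, was 2.76 and became 1.70 (200 kb), 2.51 (vitamin C), 1.37 (genes at 1 TPM or more), 3.08 (without linkage group 8) and 2.40 to 2.68 leaving out 1 library. The weak share difference was 14.5 percentage points and became 15.8 (50 kb), 9.56 (200 kb), 11.9 (vitamin C), 13.8 (no overlapping models), 13.1 (without linkage group 5), 14.1 (without the 3 far ends), 15.8 (without linkage group 8) and 14.2 to 14.5 leaving out 1 library. The span difference was -40.5 bases and ranged over -37, -45, -60 and -16.5, and the spacing difference was 157.5 bases and became 229, 150 and 207. The causes were not tested. Chosen after seeing the data were all alternatives for the weak share, leaving out the 3 far ends, and leaving out linkage groups for the level.

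The limma fit called 14 genes. It called 24 with a minimum mean of 1 TPM, 8 without the intensity trend, 27 at an adjusted p under 0.1 and 0 leaving out each library in turn. Nothing in the sources ties replicates of the same number, and their deviations correlated at r = -0.256 across 15107 genes. With the replicate number as a block 128 genes were called, with 1 member higher (gene_19691, adjusted p = 0.0495, limma) and 2 lower (gene_7791, 4.8e-07, and gene_11, 0.048), and with the numbers crossed, chosen after seeing the data, 325 genes, with 3 members higher and 4 lower.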
